A study of Mus musculus with 2 samples.

Results

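The 61 genes described here encode parts of the axoneme, the motile core of the sperm tail, and were chosen by symbol alone. They are the genes of the deposited feature table whose symbol starts with Cfap, Dnah, Dnaic, Dnal, Rsph, Drc or Tekt followed by a number, 61 of 31053 features, with Rsph3a and Rsph3b left out by the same rule. The rule itself used no measured value, but it was set with earlier results of these data known. They comprise 26 CFAP genes, 10 dynein heavy chains grouped with the inner arms, 5 heavy chains of the outer arms, 5 dynein intermediate and light chains, 3 subunits of the nexin-dynein regulatory complex (Drc1, Drc3, Drc7), 6 radial spoke genes, 5 tektins and Dnah2os. In GENCODE M21 (build GRCm38, also called mm10), 60 of them are protein coding, and Dnah2os is an antisense transcript inside Dnah2. They lie on 16 chromosomes.

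Testis cells of mice aged 8 months were profiled by 10x Genomics droplet sequencing, in which each captured transcript is counted once by its molecular tag (UMI). There was 1 wild type library and 1 library from an Igf2bp1 knockout (KO), which the series' text calls a conditional knockout (cKO). Igf2bp1 encodes an RNA-binding protein. No source used here gives the Cre line, the deleted exons or the strain, and it is not certain how many mice stand behind a library. With 1 library per genotype no difference between genotypes could be tested.

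Motility of a sperm tail comes from dynein arms that slide the microtubule doublets of the axoneme past each other. The outer arms set beat power and frequency, the inner arms shape the bend, and the radial spokes and the nexin-dynein regulatory complex regulate the arms and link neighbouring doublets. Tektins are filaments bound to the inner wall of the doublets, and the CFAP symbols gather cilia and flagella associated proteins of many kinds. In the mouse testis much of the transcription of such genes takes place before the tail is built, in meiotic spermatocytes and round spermatids.

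Many ciliary genes carry near their start site an X-box, the palindromic motif bound by RFX transcription factors. Promoter sequence of 250 bases before to 50 bases after the start was found in a RefSeq table (build GRCm38.p6) for 50 of the 61 genes. Cfap157, Cfap53, Cfap54, Cfap65, Cfap73, Cfap97, Dnah2os, Dnah3, Rsph1, Rsph10b and Rsph4a had no entry. The X-box, searched on both strands as GT, 2 bases of any kind, CC, 3 of any kind, G, 1 of any kind and AAC, occurred in 6 of the 50 (12%), against 673 of 27025 genes with such a promoter (2.49%). The cAMP response element TGACGTCA, bound by CREM in spermatids, occurred in 1 of the 50, Dnah6 (2.00%), against 549 of 27025 (2.03%). A match describes the letters of the window and is not a binding site shown by these data. The stretches before the start site of 5 of the X-box genes are shown because most of the matches fall in genes that reached their highest level in round spermatids, and the capitals mark the X-box.
Cfap45: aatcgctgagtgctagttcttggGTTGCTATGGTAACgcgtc
Cfap44: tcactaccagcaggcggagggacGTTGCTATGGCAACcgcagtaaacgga
Cfap206: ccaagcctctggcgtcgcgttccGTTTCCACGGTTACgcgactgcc
Tekt4: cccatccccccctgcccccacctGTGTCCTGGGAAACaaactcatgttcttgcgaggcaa
Dnah17: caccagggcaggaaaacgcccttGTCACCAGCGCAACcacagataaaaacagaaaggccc
The X-boxes in the windows of Cfap45 (chr1:172521088-172521129 on the plus strand), Cfap44 (chr16:44394749-44394798 on the plus strand) and Cfap206 (chr4:34730207-34730252 on the minus strand) ended 5, 13 and 9 bases before the start site. Those in the windows of Tekt4 (chr17:25471407-25471466 on the plus strand) and Dnah17 (chr11:118129342-118129401 on the minus strand) ended 146 and 145 bases before it. The match of Cfap61 straddles its start, and Tekt4 has a further match that begins at its start; neither is printed. Of the 16 genes with a promoter that were highest in round spermatids, described below, 5 held an X-box (Cfap44, Cfap45, Cfap61, Cfap206, Tekt4). Of the 31 that were highest in spermatocytes or earlier, 1 did (Dnah17), and of the 2 highest later none did.

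Germ cells were ordered into 10 stages by clustering that left out the 61 genes and the other axoneme genes named below, so the stages do not rest on them. Stages are named by their marker class or a leading gene: spermatogonia (90 wild type and 62 KO cells), early spermatocytes (177 and 81), Piwil1-high (222 and 89), Cdk1-high (451 and 153) and Chgb-high spermatocytes (678 and 146), earlier (624 and 320) and later round spermatids (233 and 48), Hemgn-high spermatids (184 and 83) and earlier (720 and 428) and later elongating spermatids (912 and 344). Chgb is a leading gene and not on the marker lists. Markers of spermatocytes near division scored highest in both Cdk1-high (median log2 1.62) and Chgb-high cells (0.99). They do not fix the order of these stages, on which the onset and highest-stage counts below rest. The wild type library had 17362 barcodes and 121257944 UMIs, the KO library 17968 and 98033324, and 4291 and 1754 cells entered the stages. The libraries shared 106 barcodes, none of them in the germ stages. In spermatogonia, where Igf2bp1 was highest, it had 59 wild type and 16 KO UMIs, which is 64.6 and 28.3 counts per 1000000 UMIs of the stage (CPM), a log2 ratio of -1.19 (95% interval -2.09 to -0.38). In early spermatocytes it had 45 and 3 UMIs. Free RNA was estimated at 35.03% of UMIs in wild type and 32.1% in KO spermatogonia, 29.7% and 47.6% in early spermatocytes and 9.54% to 18.2% in all later stages. The sum of 8 Leydig cell markers was higher in the KO library in every broader stage, for example at 98.4 CPM against 42.2 in Hemgn-high spermatids and 217 against 19.7 in spermatogonia, and so was that of 12 Sertoli cell markers (208 against 160 in spermatogonia, 56.0 against 17.8 in round spermatids). The part of these in the ratios below was not tested. All intervals in the text cover counting error only, not differences between animals or libraries.

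The summed level of the 61 genes stood at 2228 CPM in wild type spermatogonia, 5954 in early spermatocytes, 10070 in Piwil1-high, 11157 in Cdk1-high and 10901 in Chgb-high spermatocytes. It was 9430 and 7365 in earlier and later round spermatids, 3334 in Hemgn-high spermatids, and 1488 and 1539 in earlier and later elongating spermatids. The KO library gave 2482, 4900, 9854, 10651, 10051, 8782, 6909, 2784, 1612 and 1733 in the same order. Both libraries were therefore highest in Cdk1-high spermatocytes and lowest in elongating spermatids, where the 61 genes held 0.149% of wild type UMIs against 1.12% at the highest stage. The free RNA share used here is an upper bound. At that share free RNA alone would put the sum at 2767 CPM in wild type and 2537 in KO spermatogonia. The sum there lay below that expectation in both libraries. The expectation may thus be too high, and the sum does not show whether these cells held such transcripts of their own. In early spermatocytes the expectation was 2347 and 3758 CPM, and in elongating spermatids it ranged from 753 to 1435.

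**Figure D1:**
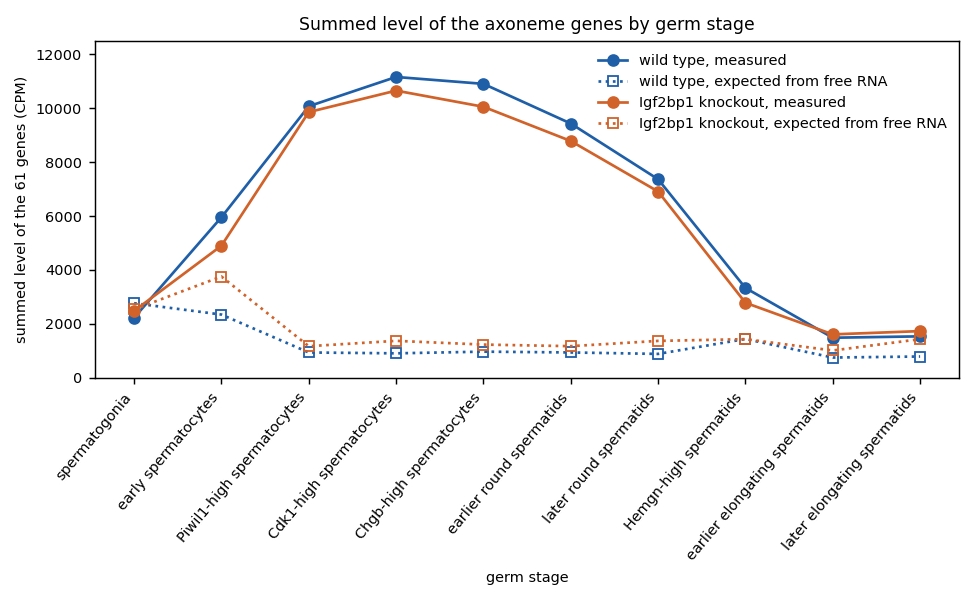
Summed level of the 61 genes in CPM (y axis) by germ stage (x axis) for the wild type and KO libraries, with the level expected from free RNA in each. The sum exceeds that expectation from early spermatocytes on and is highest in Cdk1-high spermatocytes in both libraries, at 11157 and 10651 CPM.

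Gene by gene, only 4 of the 61 lay above the level expected from free RNA with their whole interval in wild type spermatogonia, and 51 did in early spermatocytes. The 4 were Cfap20, Cfap77, Cfap97 and, with 1 UMI, Dnah2os. From Piwil1-high spermatocytes to later round spermatids the number was 55, 56, 57, 58 and 57, and it was 45, 33 and 44 in Hemgn-high, earlier and later elongating spermatids. In the KO library, which had fewer cells and in most stages a higher free RNA share, the numbers in the same order were 6, 14, 52, 54, 56, 60, 47, 25, 24 and 11. To compare cells of unequal depth, each was thinned to 2000 UMIs. Wild type cells then held a median of 4 of the 61 genes in spermatogonia, 6 in early spermatocytes, 12 in Piwil1-high, 13 in Cdk1-high and 14 in Chgb-high spermatocytes, 13 and 10 in round spermatids, 5 in Hemgn-high and 3 in elongating spermatids. Without thinning the medians were 13, 12, 46, 39, 39, 40, 37, 21, 15 and 12. KO cells held 4, 7, 11, 12, 13, 12, 10, 7, 3 and 3 after thinning.

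A gene counted as measured with at least 50 UMIs over the germ stages of a library, which 58 genes reached in wild type and 56 in KO. Dnah11, an outer arm heavy chain of airway cilia (6 UMIs), Rsph4a, a spoke head gene of airway cilia (10), and Dnah2os (1) did not in wild type, nor did Dnah5 and Cfap73 in KO. In wild type 37 of the 58 had their highest level in spermatocytes or earlier, 19 in round spermatids and 2 in Hemgn-high spermatids. By stage the highest levels fell in early spermatocytes for 1 gene (Dnah5), Piwil1-high for 17, Cdk1-high for 10, Chgb-high for 9, earlier round for 11, later round for 8 and Hemgn-high spermatids for 2 (Tekt5, Cfap221). In the KO the same blocks held 36, 18 and 2 of 56, the last 2 being Tekt5 in Hemgn-high and Rsph10b in earlier elongating spermatids. The interval of the highest stage lay above those of all other stages for 37 of 58 wild type genes and 21 of 56 KO genes, and for 14 and 24 more it overlapped only a neighbouring stage. The 2 libraries had the same highest stage for 46 of the 56 genes measured in both, and differed by at most 1 stage for 54.

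**Figure D2:**
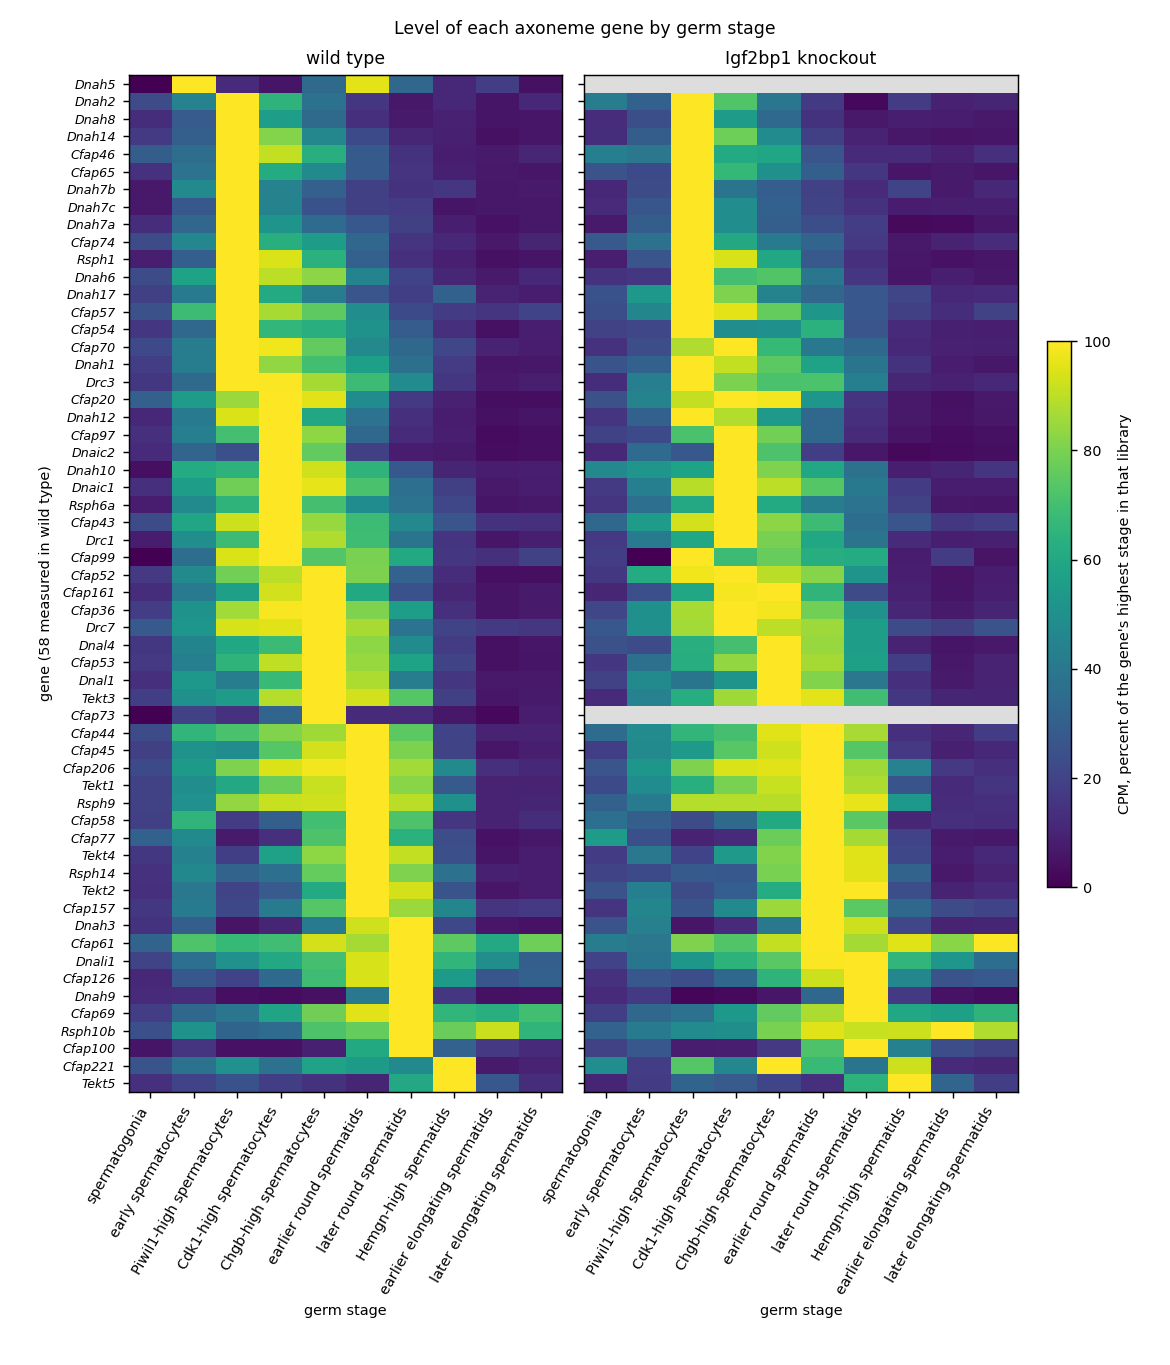
Level of each gene in each germ stage (columns) as a share of its own highest stage, for the wild type and KO libraries, with genes ordered by their highest wild type stage and grey where a gene was not measured. Most genes are highest from Piwil1-high spermatocytes to later round spermatids, and only Tekt5 and Cfap221 are highest in Hemgn-high spermatids in wild type.

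Onset was taken as the first stage with at least 50% of a gene's highest level. In wild type it fell in early spermatocytes for 18 genes, in Piwil1-high spermatocytes for 27, in Cdk1-high for 3, in Chgb-high for 6, in earlier round for 2 and in later round spermatids for 2. Onset came by the Piwil1-high stage for 45 of 58 wild type genes and for 42 of 56 KO genes. The KO library had 1 onset in spermatogonia, 7 in early and 34 in Piwil1-high spermatocytes, then 4, 6, 2 and 2. The onset stage was the same in both libraries for 41 of 56 genes and within 1 stage for 52. With the expected free RNA taken off, early onsets were fewer: 3 in wild type (Cfap58, Cfap61, Dnah5) and 0 in KO, with 37 and 39 at the Piwil1-high stage. Onset after that stage was then left to 18 wild type genes. They were Cfap45, Cfap69, Tekt4, Dnaic2, Dnal1 and Dnali1 in Cdk1-high, Cfap73, Cfap77, Cfap126, Cfap157, Cfap221, Tekt2, Rsph10b and Rsph14 in Chgb-high spermatocytes, Cfap100 and Dnah3 in earlier round and Dnah9 and Tekt5 in later round spermatids.

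Of the outer arm heavy chains, which carry the motor activity of the outer arms, Dnah8 and Dnah17 are the forms known from sperm tails and Dnah5, Dnah9 and Dnah11 those of multiciliated epithelium. Dnah8 (chr17:30624354-30877365, plus strand) stood at 179 CPM in wild type early spermatocytes, 621.8 in Piwil1-high spermatocytes and then 346, 214, 87.1 and 44.1 through Cdk1-high, Chgb-high, earlier and later round stages. Its KO levels were 145, 599, 331, 204, 87.6 and 40.6. Dnah17 (chr11:118021723-118130634, minus strand) had 42.7, 103, 62.8, 43.5, 27.3 and 18.9 CPM in wild type and 49.0, 91.5, 74.0, 41.0, 30.3 and 24.8 in KO. Both genes were thus highest at the same stage in both libraries. Dnah9 (chr11:65831282-66168551, minus strand) followed another course, at 2.18, 1.81 and 2.46 CPM in the 3 later spermatocyte stages, 21.4 in earlier and 53.4 in later round spermatids. In the KO it stood at 1.08, 1.43, 3.52, 19.3 and 57.2 CPM. Dnah5 gave only 59 UMIs in all wild type germ stages, 32 of them in earlier round spermatids. Its highest level, 1.83 CPM in early spermatocytes, rests on 3 UMIs, and that interval (0.377 to 5.35) overlapped those of all other stages, the 1.75 CPM (1.2 to 2.48) of earlier round spermatids included.

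Among the heavy chains grouped with the inner arms, 9 of 10 were highest in spermatocytes in wild type. Dnah1, Dnah2, Dnah6, Dnah7a, Dnah7b, Dnah7c and Dnah14 were highest at the Piwil1-high stage and Dnah10 and Dnah12 at the Cdk1-high stage. Dnah14 stood at 48.8, 160, 130 and 74.0 CPM from early to Chgb-high spermatocytes in wild type and at 50.9, 174, 136 and 83.7 in KO. Dnah7a, Dnah7b and Dnah7c are close copies, and their reads may have been split between them by the authors' counting. The exception was Dnah3 (chr7:119922671-120095280, minus strand), at 6.11, 11.6 and 47.1 CPM in the Piwil1-high, Cdk1-high and Chgb-high stages, then 105 and 113 in earlier and later round spermatids. Its KO levels were 5.43, 10.98, 36.1, 90.3 and 83.5. The 5 intermediate and light chains, which anchor and regulate the motors, were spread more widely. Dnaic2 was highest at the Cdk1-high stage, with 26.3, 107 and 81.4 CPM from Piwil1-high to Chgb-high spermatocytes in wild type and 29.3, 106 and 76.2 in KO. Dnali1, a light chain of the inner arms, reached 479 CPM in later round spermatids (KO 460) and still stood at 145 in later elongating spermatids (KO 167). Dnaic1 was highest at the Cdk1-high stage (111 and 104 CPM), and Dnal1 (57.3 and 53.3) and Dnal4 (197 and 186) at the Chgb-high stage.

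**Figure D3:**
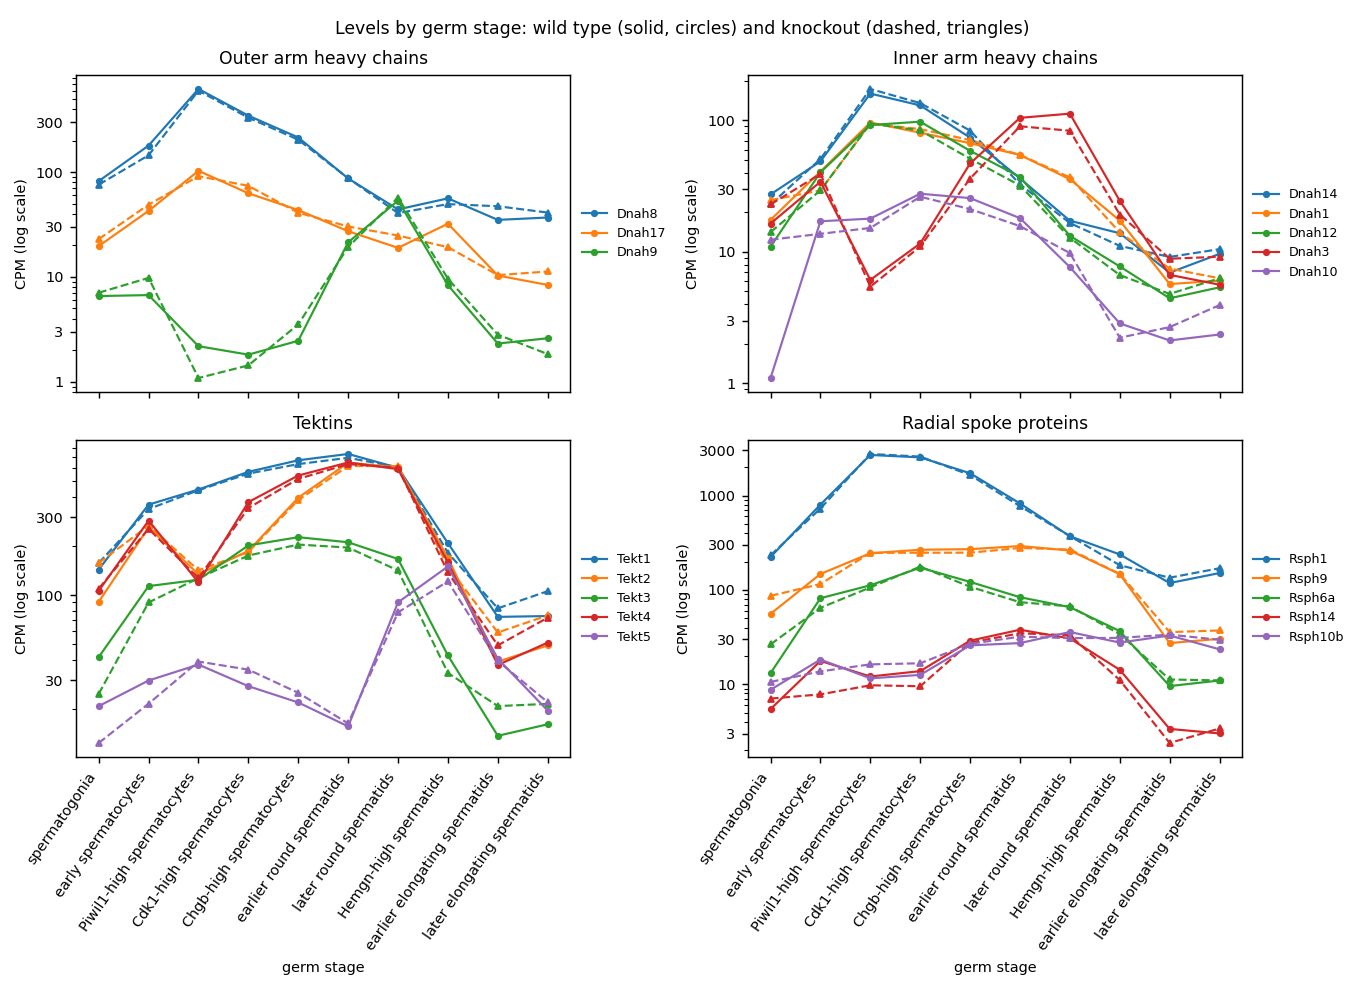
Level in CPM (log axis) by germ stage for outer and inner arm heavy chains, tektins and radial spoke genes, wild type (solid lines, circles) and KO (dashed lines, triangles). Dnah9, Dnah3 and Tekt5 stand apart from the other members of their groups by their late high levels, at 53.4 and 113 CPM in later round and 150 CPM in Hemgn-high wild type spermatids.

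Rsph1 (chr17:31255019-31277383, minus strand), a radial spoke head gene, gave the most UMIs of the 61 genes (counts not divided by transcript length), 98719 in wild type and 24692 in KO germ cells. Its level was 802 CPM in early, 2691 in Piwil1-high, 2536 in Cdk1-high and 1723 in Chgb-high spermatocytes, 824 in earlier and 370 in later round spermatids in wild type. The KO values were 728, 2756, 2584, 1649, 772 and 372. The other spoke genes were not highest together with it. Rsph6a was highest at the Cdk1-high stage (172 and 177 CPM in wild type and KO), and Rsph9 in earlier round spermatids, where its 292 CPM (KO 278) compared with 245 to 270 in the 3 preceding stages. Rsph14 was highest in earlier round spermatids (37.9 CPM) and Rsph10b in later round spermatids, at 35.8 CPM against 32.9 in earlier elongating spermatids. In the KO Rsph10b was highest in earlier elongating spermatids, at 33.6 CPM against 31.98 in earlier round, and from Chgb-high spermatocytes on its level ranged from 23.5 to 35.8 CPM in wild type and 26.9 to 33.6 in KO. The 3 Drc genes, subunits of the link between doublets, were highest in spermatocytes in wild type. Drc1 stood at 107, 156 and 138 CPM from Piwil1-high to Chgb-high cells (KO 95.5, 160 and 127), Drc3 at 87.9, 87.4 and 75.9 and Drc7 at 40.4, 41.1 and 43.1.

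Of the tektins, Tekt1, Tekt2 and Tekt4 were highest in earlier round spermatids, Tekt3 at the Chgb-high stage and Tekt5 in Hemgn-high spermatids. Tekt1 had 734 CPM at its highest stage in wild type and 695 in KO, and Tekt3 226 and 204. Tekt2 and Tekt4 were lower in Piwil1-high spermatocytes than in the stages before and after. Tekt2 (chr4:126322121-126325688, minus strand) stood at 260 CPM in early, 134 in Piwil1-high, 186 in Cdk1-high and 395 in Chgb-high spermatocytes and 648 in earlier round spermatids in wild type, and at 266, 142, 184, 382 and 619 in KO. Tekt4 had 286, 120, 372, 541 and 651 CPM in wild type and 255, 127, 342, 516 and 635 in KO. With free RNA taken off, wild type Tekt2 still went from 108 to 73.3 and then 128 CPM over the first 3 of these stages, and Tekt4 from 146 to 63.4 and then 317. In the KO, where more of the early spermatocyte UMIs were counted as free RNA, Tekt2 then gave 16.7, 63.8 and 92.6 CPM and Tekt4 24.3, 55.1 and 258, with no dip. Tekt5 (chr16:10357948-10395490, minus strand) had 15.6 CPM in earlier round, 90.2 in later round, 150 in Hemgn-high and 40.6 in earlier elongating wild type spermatids. In the KO it had 16.3, 78.3, 121 and 39.4. It thus reached its highest level after the other tektins in both libraries.

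The 26 CFAP genes covered the whole range. Cfap36 gave the most UMIs of them, with 1060 CPM at its highest stage, Chgb-high spermatocytes, and 910 in the KO at the Cdk1-high stage. Cfap97 was highest at the Cdk1-high stage, at 860 CPM in both libraries. Cfap20, a doublet inner junction protein, had 259, 306, 293 and 149 CPM from Piwil1-high spermatocytes to earlier round spermatids. Cfap52, also found at that junction, had 72.4, 82.6, 91.7 and 73.8. Cfap206, Cfap44 and Cfap45, 3 of the X-box genes printed above, were highest in earlier round spermatids at 593, 66.6 and 529 CPM (KO 534, 64.9 and 480). Cfap100 was late, at 17.3 CPM in Chgb-high spermatocytes, 121 in earlier and 199 in later round spermatids (KO 28.6, 124 and 172). Cfap126 and Cfap69 were also highest in later round spermatids, at 439 and 323 CPM. Cfap69 kept 225 CPM in later elongating spermatids (KO 203), where Cfap36, Cfap97 and Cfap20 were at 78.7, 34.9 and 11.8 CPM. Cfap58 had 68.3 CPM in early, 18.3 in Piwil1-high and 31.6 in Cdk1-high spermatocytes and 104 in earlier round spermatids in wild type. In KO early spermatocytes it had 29.4 CPM, from 15 UMIs.

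The genotypes were compared within 6 broader stages, with the 3 later spermatocyte clusters joined as late spermatocytes and the round and the elongating clusters joined likewise. A gene with at least 50 UMIs over both libraries was counted as past the limit where the KO over wild type ratio was at least 1.5-fold with a 95% interval that left out 1. In early spermatocytes 6 of the 42 measured genes were past it, all lower in the KO (14.3%), where 8.29% of all measured genes were past it, 3.15% higher and 5.14% lower. In late spermatocytes 1 of 57 was lower (1.75%), against 7.03% of all genes, 4.24% higher and 2.79% lower. In round spermatids 1 of 57 was higher (1.75%), against 5.81% of all genes, 3.13% higher and 2.68% lower. In Hemgn-high spermatids 6 of 45 were lower (13.3%), against 7.25% of all genes, 1.59% higher and 5.66% lower. In elongating spermatids 0 of 56 were past the limit, against 9.63% of all genes, 9.0% higher and 0.626% lower. In spermatogonia 2 of 18 were higher and 1 lower (16.7%), against 7.96% of all genes, 4.48% higher and 3.48% lower. The estimated free RNA share was high there. Thus the share past the limit was below the background in the 3 stages with the most UMIs and above it in the 3 with the fewest. By the fold alone, whatever the interval, 4, 9, 2, 1, 9 and 0 members were past it from spermatogonia to elongating spermatids, against 12.2%, 14.8%, 10.3%, 8.43%, 12.7% and 12% of all genes.

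The median log2 ratio of the measured members was 0.02 in spermatogonia, -0.28 in early spermatocytes, -0.11 in late spermatocytes, -0.02 in round, -0.30 in Hemgn-high and 0.17 in elongating spermatids. Over all measured genes it was 0.02, -0.05, 0.02, 0.01, -0.09 and 0.18. Early spermatocytes had 33 of 42 members below 0, late spermatocytes 39 of 57, round spermatids 34 of 57 and Hemgn-high spermatids 37 of 45. Elongating spermatids had 46 of 56 above 0. Scaling by the median of ratios shifted all ratios of that stage by 0.17 and put the members' median at 0.00, so relative to other genes the members did not stand higher there. With free RNA taken off, 25 members stayed measured in elongating spermatids and their median was -0.72. The median of all genes after that step is not given here. By role, the late spermatocyte median was 0.11 for the inner arm heavy chains, 0.10 for the outer arm ones, -0.16 for the CFAP genes, -0.18 for the tektins and -0.22 for the Drc genes. The 3 joined clusters were unequally shared, at 222 and 89 Piwil1-high, 451 and 153 Cdk1-high and 678 and 146 Chgb-high cells. Within them heavy chains lay on both sides of 0, for example Dnah8 at -0.054, -0.064 and -0.07 and Dnah14 at 0.116, 0.058 and 0.179. The part of the mix in the role medians was not tested. In round spermatids all role medians but that of the outer arm heavy chains (0.18) lay between -0.09 and 0.07.

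**Figure D4:**
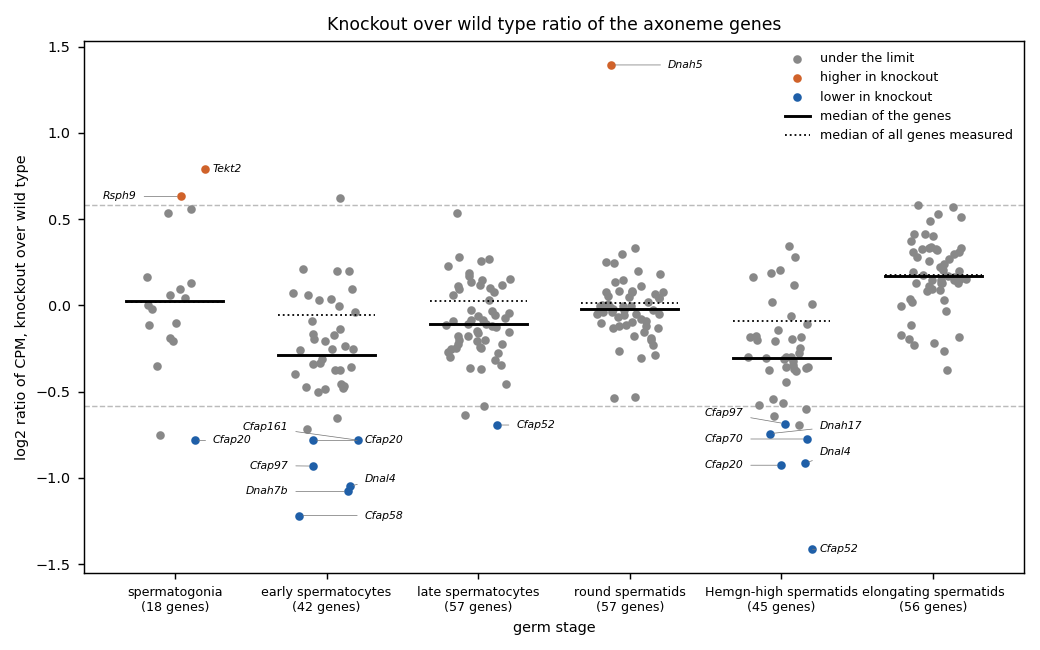
KO over wild type log2 ratio of each measured gene (points, those past the limit coloured and named) in the 6 broader stages, with the median of the members (solid) and of all genes (dotted) and dashed lines at 1.5-fold. Most points lie close to 0 in late spermatocytes and round spermatids, and 6 genes each are lower past the limit in early spermatocytes and Hemgn-high spermatids.

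In late spermatocytes the member past the limit was Cfap52 (chr11:67924806-67965651, minus strand). It had 2789 wild type and 369 KO UMIs there, 83.7 and 51.8 CPM, a log2 ratio of -0.69 (-0.85 to -0.54). By cluster the ratio was -0.40 (-1.26 to 0.38) in early, -0.45 (-0.72 to -0.19) in Piwil1-high, -0.61 (-0.91 to -0.33) in Cdk1-high and -0.92 (-1.22 to -0.64) in Chgb-high spermatocytes. It was -0.74 (-0.93 to -0.56) in earlier round and -0.05 (-0.59 to 0.45) in later round spermatids. Cfap52 was thus lower in the KO in 4 clusters in a row with intervals below 0, and its levels did not differ beyond counting error in later round spermatids. A UMI was seen in 78.6% of wild type and 38.4% of KO Chgb-high cells, and in 80.8% and 53.4% of earlier round spermatids, at median depths of 18654 and 14192 UMIs and of 23089 and 17257. With each cell thinned to 2000 UMIs the late spermatocyte ratio was -0.35 and under the limit, and it ranged from -0.77 to -0.67 over the other alternatives. Such a run was not particular to Cfap52. Cfap36 had intervals below 0 in each cluster from early spermatocytes (-0.254) to Hemgn-high spermatids (-0.579), with each ratio short of 1.5-fold.

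Cfap20 (chr8:95420249-95434869, minus strand) had a log2 ratio below 0 in 9 of 10 clusters. It stood at -0.78 (-1.42 to -0.17) in spermatogonia, from 86 and 31 UMIs, and at -0.78 (-1.25 to -0.34) in early spermatocytes, from 276 and 50. In late spermatocytes it had 287 CPM in wild type and 210 in KO, a ratio of -0.45 (-0.53 to -0.37), short of the 1.5-fold limit but with a narrow interval. In Hemgn-high spermatids the ratio was -0.93 (-1.68 to -0.24), from 138 and 20 UMIs. The 10 clusters in order gave -0.78, -0.78, -0.39, -0.48, -0.44, -0.37, -0.65, -0.93, -0.18 and 0.36. After thinning, the early spermatocyte ratio was -0.23, and without the deepest 5% of cells the Hemgn-high ratio was -0.20, both under the limit.

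**Figure D5:**
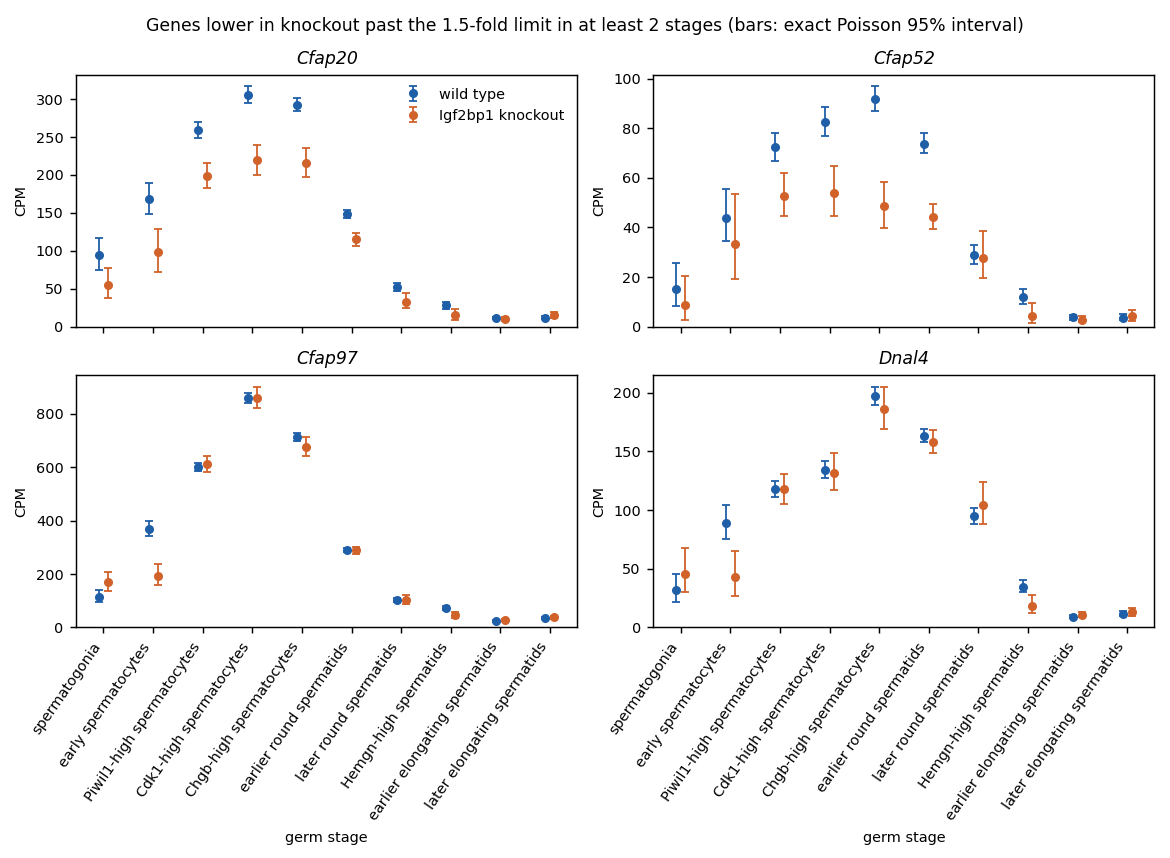
Level in CPM by germ stage of the 4 genes lower in the KO past the limit in at least 2 broader stages (points, with exact Poisson 95% intervals), wild type and KO. Cfap52 lies lower in the KO from Piwil1-high spermatocytes to earlier round spermatids and Cfap20 in most stages, while the intervals of Cfap97 and Dnal4 overlap between the libraries from Piwil1-high spermatocytes to later round spermatids.

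The 6 genes lower in KO early spermatocytes were Cfap97, Cfap58, Dnal4, Dnah7b, Cfap20 and Cfap161. Cfap97 (chr8:46151771-46195590, plus strand) had 370 CPM in wild type and 194 in KO, from 606 and 99 UMIs, a log2 ratio of -0.93 (-1.25 to -0.62). In spermatogonia it pointed the other way, at 115 CPM in wild type and 170 in KO (0.56, 0.15 to 0.97), under the 1.5-fold limit. In the 5 clusters from Piwil1-high spermatocytes to later round spermatids its ratio lay between -0.08 and 0.03. Cfap58 (chr19:47937675-48035387, plus strand) had 68.3 and 29.4 CPM, a ratio of -1.22 (-2.10 to -0.44), Dnal4 (chr15:79761453-79777849, minus strand) 89.1 and 43.1 CPM, a ratio of -1.05 (-1.77 to -0.40), and Cfap161 118 and 68.5 CPM, a ratio of -0.78 (-1.34 to -0.26). Dnah7b, from 61 and 9 UMIs, gave -1.08 (-2.27 to -0.06). These ratios rest on 81 KO cells of median depth 4602 UMIs, against 177 of 4977 in wild type. After thinning to 2000 UMIs, which left 11 members measured, only Cfap97 (-0.67) was past the limit and the median of the members was 0.00. With free RNA taken off the median was -1.62, with 10 of 36 past the limit. The free RNA share used in that step was 29.7% in wild type and 47.6% in KO. The median and share of all genes after thinning or after that step are not given here. These values thus cannot be read as particular to the members. The size of the difference in this stage thus varied with the treatment of depth and free RNA. The set of members measured changed as well, and the part of that was not tested.

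The 6 genes lower in KO Hemgn-high spermatids were Cfap52, Cfap20, Dnal4, Cfap70, Dnah17 and Cfap97. Cfap52 had 58 and 6 UMIs, 11.8 and 4.44 CPM, a log2 ratio of -1.41 (-2.92 to -0.20). Dnal4 had 34.8 and 18.5 CPM, a ratio of -0.91 (-1.58 to -0.30), and Dnah17 32.2 and 19.2 CPM, a ratio of -0.74 (-1.40 to -0.14). Cfap70 had 24.04 and 14.1 CPM (-0.77, -1.56 to -0.07) and Cfap97 72.5 and 45.1 CPM (-0.68, -1.10 to -0.29). Tekt5 and Cfap221, the 2 genes whose highest wild type stage this was, were not past the limit, at 150 and 121 CPM for Tekt5 and for Cfap221 at 29.5 and 19.97. The median depth of these cells was 23476 UMIs in wild type and 12993 in KO. After thinning 12 members stayed measured, with a median of 0.14 and 1 past the limit, and without the deepest 5% of cells 1 was past it with a median of -0.12. The unthinned median of these 12 members is not given here, so the thinned value does not separate depth from the set of genes.

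In round spermatids Dnah5 (chr15:28203752-28472052, plus strand) was higher in the KO, with 37 wild type and 29 KO UMIs, 1.40 and 3.67 CPM, a log2 ratio of 1.39 (0.64 to 2.13). Its UMIs came from 37 wild type and 28 KO cells, so no single cell set the value. Over the alternatives in which it was measured the ratio ranged from 0.90 to 1.69 and stayed past the limit. These alternatives rest largely on the same few UMIs. At its wild type level in both libraries Dnah5 would have fallen short of 50 UMIs. It thus entered the comparison through its high KO count, and its ratio is described with that limit. Cfap52 (59.8 and 41.4 CPM, -0.53) and Tekt5 (-0.54) came closest to the limit from below. By cluster, however, Tekt5 gave 0.06 (-0.274 to 0.386) in earlier and -0.205 (-0.515 to 0.093) in later round spermatids. The libraries held these clusters in unequal shares, with 624 wild type and 320 KO earlier cells and 233 and 48 later ones. The part of this mix in the joined ratio was not tested. In spermatogonia Tekt2 (90.9 and 157 CPM, 0.79, 0.34 to 1.24) and Rsph9 (55.8 and 86.6 CPM, 0.63, 0.04 to 1.23) were higher in the KO, and Cfap20 was lower as given above. Without the cell with most UMIs the Rsph9 ratio was 0.61, still over 1.5-fold, but its interval no longer left out 1. In elongating spermatids Tekt2 (0.57), Dnah3 (0.53) and Cfap46 (0.58) came closest to the limit on the higher side.

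The other genes of the axoneme and its assembly were read from 7 lists of genes outside the 61. Of all measured genes 5.14% were lower past the limit in early spermatocytes, 2.79% in late spermatocytes and 5.66% in Hemgn-high spermatids. On the higher side it was 4.24% in late spermatocytes and 9.0% in elongating spermatids. Of 14 dynein assembly factors, which fold and join the arms in the cytoplasm, 1 of 10 measured was lower in KO early spermatocytes (Lrrc6, -0.68) and 2 of 14 in late spermatocytes (Dnaaf5, -0.66, and Pih1d3, -0.60). In Hemgn-high spermatids 2 of 9 were lower (Zmynd10, -1.22, and Spag1, -1.75), and none was past the limit in round or elongating spermatids. Of 7 outer arm docking and axonemal ruler genes, Ccdc39, which sets the repeat of the inner arms, was lower in early spermatocytes (-0.75) and Hemgn-high spermatids (-1.54). It was 1 of 5 measured in each. Of 7 further nexin-dynein regulatory genes Iqca was lower in late spermatocytes (-0.60, 1 of 7 measured) and Ccdc65 in Hemgn-high spermatids (-0.84, 1 of 6). Of 20 intraflagellar transport genes, which carry axoneme parts into cilia, none was past the limit up to round spermatids. In Hemgn-high spermatids 2 of 16 measured were lower, Ift20 (-0.60) and Ift81 (-0.93). In elongating spermatids 5 of 20 were higher (Ift20, Ift27, Ift43, Ift88 and Ttc26, 0.61 to 0.75). Of 13 cytoplasmic dynein and dynactin genes Dynlrb1 was higher in late spermatocytes (0.88, 1 of 13 measured). Dync1li2 was lower in Hemgn-high spermatids (-0.63, 1 of 8), and 4 of 11 were higher in elongating spermatids. Of 7 other central apparatus genes Spag6 was higher in elongating spermatids (0.61, 1 of 7 measured). Scaled by the median of ratios, the counts of higher genes in elongating spermatids were 0, 1 and 0 for transport, cytoplasmic dynein and central apparatus. The share of all genes under that scaling is not given here.

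Of 12 transcription factors of cilia and germ cells, Tcfl5 was lower in KO early spermatocytes (184 and 97.9 CPM, -0.91) and Sox5 higher in spermatogonia (0.86), and no other was past the limit in any stage. They were 1 of 10 and 1 of 5 measured there. Of all measured genes 5.14% were lower in early spermatocytes and 4.48% higher in spermatogonia. Rfx2, an X-box binding factor of the testis, stood at 66.5 and 68.3 CPM in late spermatocytes, and Rfx4 at 63.2 and 63.1 in round spermatids. Crem had 514 and 500 CPM and Sox5 371 and 323 in round spermatids. Foxj1, a ciliogenesis factor, had 31.2 and 21.5 CPM in late spermatocytes (-0.54) and 43.9 and 40.9 in round spermatids. Ciliated epithelium could also hold axonemal transcripts. The 8 markers listed for it summed to 116 to 701 CPM over the wild type stages and 142 to 685 over the KO stages, and most of them had UMIs in germ stages. In late spermatocytes and round spermatids of the wild type Foxj1 had 1039 and 1163 UMIs, Deup1 2850 and 5603, Ccno 111 and 72 and Ccdc153 39 and 50. The KO counts were 153 and 323, 541 and 1602, 12 and 30, and 6 and 7. Tmem212 and Mcidas were at 0 in round spermatids of both libraries and at no more than 2 UMIs in any of the 6 broader stages. The part of such cells in the levels was not tested.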

How the data were processed

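Raw UMI counts per gene and barcode were used as deposited by the authors (sparse matrices, file version 3.1.0 per the file headers). Per the submitters' processing notes they come from Cell Ranger 2.2.0 and STAR on mm10. No source used here says how cells were called or whether strand was used. Barcodes with at least 500 UMIs, 250 genes and at most 20% mitochondrial UMIs were kept (17002 wild type, 17703 KO). They were clustered on 2000 variable genes, without the 61 genes and the other axoneme lists, in scanpy 1.11.5 (30 components, 15 neighbours, leidenalg 0.10.2, resolution 1, 37 clusters). For the stages 1 of these clusters was split with the partition at resolution 1.5. No doublet caller was run. Clusters left out of the germ stages included Leydig-like, Sertoli-like, macrophage and T or NK lymphocyte ones. Also left out were several empty-like ones (10668 and 7529 barcodes in all), a shallow round-like one (647 and 686) and a mixed deep one (201 and 32). So were a Pou5f2-high one (6 and 52), a mixed Sertoli and elongating one (45 and 38) and a shallow Smcp-high one (213 and 39). Stage names mean cells like that stage by marker genes. Hemgn-high spermatids and Chgb-high spermatocytes kept their leading gene's name.

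Counts were summed per stage and library. Levels carry exact Poisson intervals, shares of cells exact Clopper-Pearson ones and ratios exact conditional binomial ones (scipy 1.17.1), all at 95%. Only the ratio intervals and the limit were tested on simulated data, which held counting error alone. The free RNA share of a stage is the lower of 2 estimates against the 10% of barcodes with fewest UMIs, over 9 Leydig and Sertoli genes or over Prm1, Prm2, Tnp1 and Tnp2. Each estimate is an upper bound, so values with free RNA taken off may be overcorrected. With 1 library per genotype no p-value was computed. Genes named are, in each stage, the 5 highest and 5 lowest ratios by the interval bound nearest 0, the 5 highest levels, members of the small families, genes highest in early stages and up to 4 per other list; Cfap58, Cfap69, Cfap44, Cfap45, Cfap61, Cfap70, Cfap46 and the genes listed by stage were named after their values were seen. The members and lists were chosen with earlier results of these data known. Overlapping genes on the same strand (9 members) or the opposite strand (33) may share counts.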

Additional observations from a re-analysis of the deposited data

How the results depend on the processing

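The alternatives without the deepest 5% of cells, with the shallow round-like cluster, and the thinned onset were chosen after seeing the data. Onset by the Piwil1-high stage (45 of 58) rose to 55 with a limit of 25% of the highest level. Thinning kept the highest stage for 41 of 58 genes and within 1 stage for 53. It kept the onset stage for 37 of 58 and within 1 stage for 49. The median log2 ratio of the members moved with free RNA taken off to 0.42 in spermatogonia, -1.62 in early spermatocytes, -0.0861 in round, -0.56 in Hemgn-high and -0.72 in elongating spermatids. With cells thinned it moved to 0.49, -0.0044, -0.0733 and 0.14 in spermatogonia, early spermatocytes, round and Hemgn-high spermatids. The thinned medians of early spermatocytes and Hemgn-high spermatids cover fewer members than the main ones. Medians of all genes are not given for these alternatives. Without the deepest 5% of cells the median of the members was 0.18 in spermatogonia, -0.12 in early spermatocytes and -0.12 in Hemgn-high spermatids. At resolution 1.5 it was -0.0802 in round and -0.17 in Hemgn-high spermatids, with clusters weighted equally -0.0823 in round, and with median of ratios scaling -0.0015 in elongating spermatids. The count past the limit also moved. In spermatogonia (3) it was 0 at 2-fold, 5 with at least 20 UMIs, 0 with at least 200, 1 with free RNA taken off and 0 thinned. In early spermatocytes (6) it was 3 at 2-fold, 3 with at least 200 UMIs, 10 with free RNA taken off and 1 thinned. In late spermatocytes (1) it was 0 at 2-fold, 3 with free RNA taken off, and 2 with any interval, median of ratios scaling, equal cluster weights, thinning, the strict barcode filter, resolution 1.5 or without the cell with most UMIs. In round spermatids (1) it was 0 with at least 200 UMIs, 3 with free RNA taken off, and 2 without the deepest 5% or with the shallow round-like cluster. In Hemgn-high spermatids (6) it was 2 with free RNA taken off and 1 at 2-fold, with at least 200 UMIs, thinned or without the deepest 5%. In elongating spermatids (0) it was 5 with free RNA taken off, 6 thinned, 2 with equal cluster weights or resolution 1.5, and 1 without the deepest 5%. Median of ratios scaling moved the other lists to 1 (assembly factors, round), 1 (transport, Hemgn-high), 1 (transcription factors, late spermatocytes), and 0, 0 and 1 (central apparatus, transport and cytoplasmic dynein, elongating). The cause was not tested. No single gene reversed; 21 of the values no longer met the limit, by fold or by interval, and 104 kept their side. Equal weights of clusters could not be run for onset, since no stage joins more than 1 cluster. For the cluster split with the resolution 1.5 partition, that alternative shares the split with the main setting. No paired analysis was possible because there was 1 library per genotype.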

Other observations

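Outside the germ line the 61 genes summed to 1604 CPM in 43 wild type and 2159 in 369 KO Leydig-like cells, and to 5871 and 6066 in Sertoli-like cells (746 and 950), below the 7899.5 and 7894.6 CPM of the barcodes with fewest UMIs. Leydig-like cells held 2 exceptions. Dnah9 stood there at 26.5 and 31.5 CPM, which is 157% and 169% of its level in the barcodes with fewest UMIs, from 8 and 73 UMIs. Dnah2os, with 1 UMI in all wild type germ stages, had 10 wild type and 28 KO UMIs in Leydig-like cells, 33.1 and 12.1 CPM. A Pou5f2-high cluster of 6 wild type and 52 KO cells held 7700 and 8727 CPM of the 61 genes.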
